A study of Mus musculus with 16 samples.

Results

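The Musashi proteins bind short RNA sites with a UAG core and control the translation, splicing and stability of the transcripts that carry them. In the testis Musashi-1 is known from Sertoli cells and spermatogonia and Musashi-2 from later germ cells. Described here are 7 genes that were lower in mouse testes with either a Musashi-1 or a Musashi-2 transgene: Rasgrf1, Nckap1l, Epsti1, Ehbp1, Prps1l3, 4930430E16Rik and Ano10. They were chosen by name from the authors' deposited comparison tables and have 8 named probes there, of 25697 probes on the array. The deposited tables name 836 genes in all. Because low values in transgenic testes chose these genes, their differences from wild type are given as a description, with no test.

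The RNA was total RNA of whole testes from B6xCBA mice aged 3 months, read on 16 Illumina bead arrays in 4 groups of 4. The groups were TgMsi1 (overexpressing Musashi-1 in the testis), Wt(TgMsi1) (wild-type littermates of that line), TgMsi2 (overexpressing Musashi-2 in the testis) and Wt(TgMsi2) (wild-type littermates of that line). The labels name neither the promoter of the transgenes nor the number of founder lines, and leave unsaid whether the 4 replicates of a group came from separate mice, so the p-values below rest on a spread between arrays that may be technical. Values are deposited log2 signals. They ran from 7.37 to 14.51 with a median of 7.83, and none lay near 0, so fold changes of dim probes may be understated. In whole testis, fewer cells of a type and less RNA per cell cannot be told apart. The array design holds 1 probe each for Msi1 and Msi2 under those symbols, of which 0 are named in the deposited tables, so the transgenes' own transcripts were not read. Principal component 1 over all probes held 40.9% of the variance, and on it TgMsi2 arrays were placed at 9.20 to 35.3, with replicates 1 and 3 farthest out, TgMsi1 replicate 2 lay at 10.7, and the other 11 arrays lay below 0.

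The probes are shown because each gene is read at only 1 or 2 short stretches of its transcript. Each is 50 bases, 5′ to 3′, as the deposited tables give it. Capitals mark the run of 49 bases that the 2 Rasgrf1 probes share, and in the other probes the trinucleotide TAG.
Rasgrf1 probe A: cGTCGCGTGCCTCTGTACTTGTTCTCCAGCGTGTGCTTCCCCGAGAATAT
Rasgrf1 probe B: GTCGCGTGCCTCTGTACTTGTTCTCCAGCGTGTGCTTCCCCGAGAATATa
Nckap1l: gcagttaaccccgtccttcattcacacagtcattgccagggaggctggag
Epsti1: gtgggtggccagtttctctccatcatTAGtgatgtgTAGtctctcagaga
Ehbp1: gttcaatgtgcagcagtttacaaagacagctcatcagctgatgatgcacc
Prps1l3: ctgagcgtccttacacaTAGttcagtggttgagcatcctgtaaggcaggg
Fam161a: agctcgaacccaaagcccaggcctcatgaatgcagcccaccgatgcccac
Ano10: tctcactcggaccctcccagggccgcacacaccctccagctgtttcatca

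The Rasgrf1 probes are the same stretch moved by 1 base, so they are not independent readings of the gene. Both come from the transcript near base 4106 (probe A) and 4108 (probe B) of the sequences they were designed on. Probe A lies at chr9:89921695-89921744 on the plus strand, Epsti1 at chr14:78401935-78401984 (plus), Ehbp1 at chr11:21906082-21906131 (minus), Prps1l3 at chr12:58340774-58340823 (plus) and Ano10 at chr9:122085284-122085333 (minus). Neither the genome build of these coordinates nor the place of each probe in its transcript's reading frame is stated by the tables. The tables give no coordinates for Nckap1l (cytoband 15qF3), Rasgrf1 probe B and 4930430E16Rik. The last matched the RefSeq gene Fam161a on chromosome 11 through its transcript accession and is called Fam161a below. Prps1l3 stands in the tables under its older symbol AU021838. Epsti1 held TAG at 2 places and Prps1l3 at 1, counted on the strand shown, so 2 of 8 probes (25%) held it, against 35.3% of all 932 named probes. The member probes held 23 to 31 G or C bases, with a median of 27.5 against 26 for all named probes. The array design holds further probes of 4 of these genes that have no name in the value table: 2 each for Rasgrf1, Epsti1 and Fam161a and 1 for Ehbp1. Their values were not analysed here, so agreement between separate stretches of a gene is not known.

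Rasgrf1 encodes a guanine nucleotide exchange factor that loads GTP onto RAS proteins. It is best known from neurons, and in mice it is an imprinted gene expressed from the paternal allele. Probe A had log2 signals of 8.49, 8.28, 8.46 and 8.58 in TgMsi1 testes (replicates 1 to 4), against 9.48, 8.79, 9.02 and 9.23 in Wt(TgMsi1) testes. In the other line it had 8.28, 8.72, 8.43 and 8.62 in TgMsi2 testes, against 9.17, 9.47, 9.62 and 9.34 in Wt(TgMsi2) testes. The transgenic groups of the lines lay at nearly the same level. Every transgenic array lay below every wild-type array of its line, as for 2.16% of all probes in TgMsi1 and 8.42% in TgMsi2, shares from which nothing is read for genes chosen as low. The means were 8.45 ± 0.13 in TgMsi1 and 9.13 ± 0.30 in Wt(TgMsi1), a log2 difference of -0.68 or 62.6% of the wild-type signal, and 8.51 ± 0.19 in TgMsi2 and 9.40 ± 0.19 in Wt(TgMsi2), a difference of -0.89 or 54.1% (SD, n = 4 each). Probe B had log2 signals of 8.40, 8.26, 8.38 and 8.34 in TgMsi1 testes, against 9.20, 8.50, 8.80 and 9.06 in Wt(TgMsi1) testes. Its signals were 8.31, 8.47, 8.42 and 8.39 in TgMsi2 testes, against 8.93, 9.35, 9.44 and 9.32 in Wt(TgMsi2) testes. The differences of probe B were -0.54 in TgMsi1 and -0.86 in TgMsi2. The deposited TgMsi1 table lists only probe A and the TgMsi2 table lists both. Over the 16 arrays probe B minus probe A ran from -0.29 to 0.03 (median -0.18), and the 8 transgenic arrays of probe B spread less (SD 0.06 in TgMsi1 and 0.07 in TgMsi2) than the wild-type arrays (0.31 in Wt(TgMsi1) and 0.22 in Wt(TgMsi2)).

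**Figure D1:**
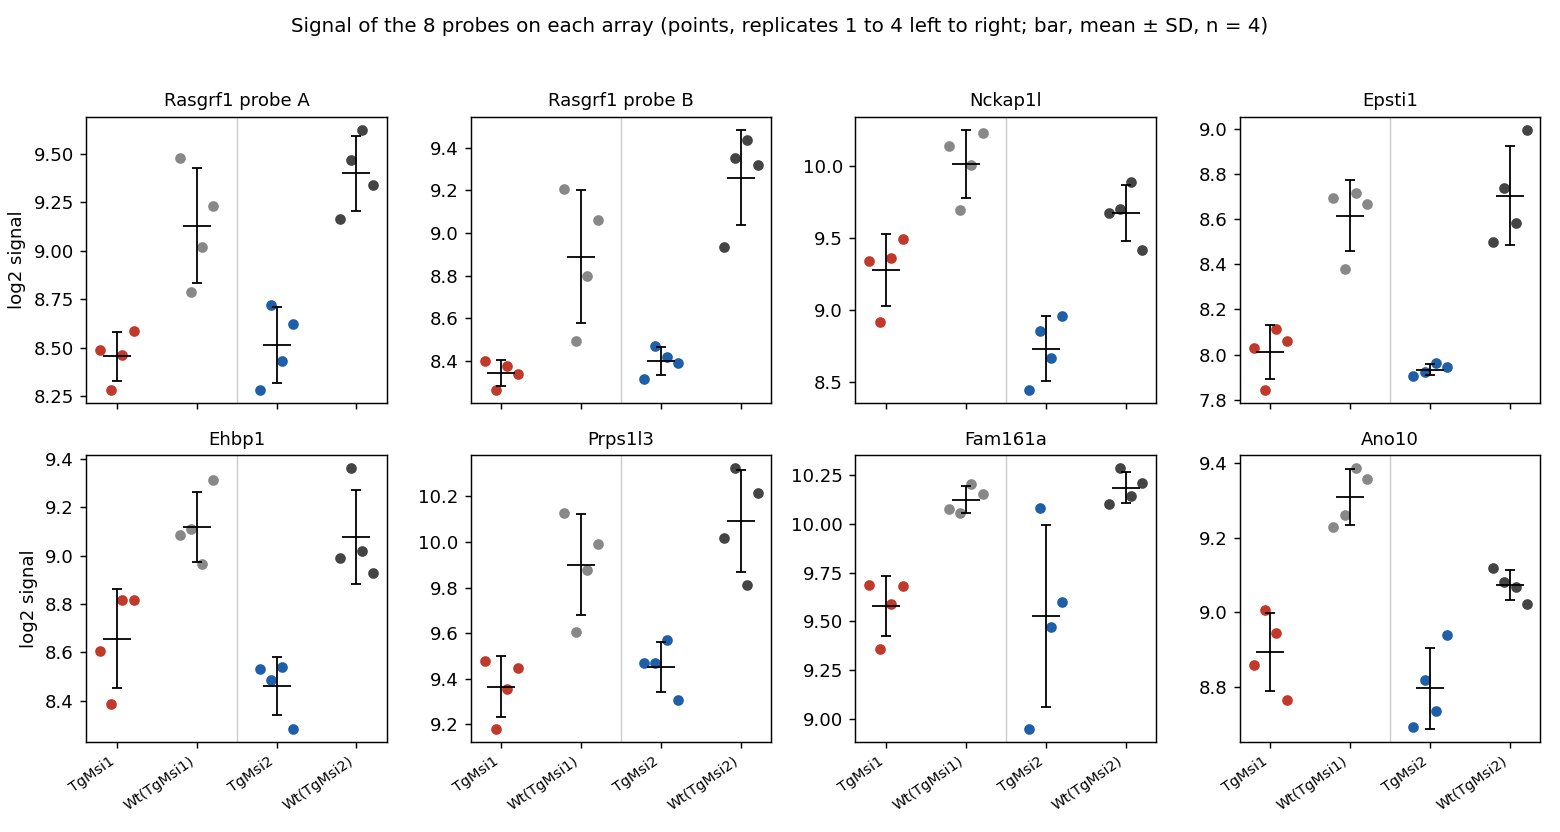
Log2 signal of each of the 8 probes (y axis) on the 4 arrays of each group (x axis); points are arrays, bars are the mean ± SD (n = 4). In all 8 panels the transgenic arrays lie below the wild-type arrays of the same line, by a gap of only 0.02 for Fam161a in the Musashi-2 line.

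Nckap1l encodes HEM1, the blood-cell subunit of the WAVE complex, which passes RAC signals on to actin polymerisation. It had log2 signals of 9.34, 8.92, 9.36 and 9.50 in TgMsi1 testes, against 10.14, 9.69, 10.001 and 10.22 in Wt(TgMsi1) testes. Its signals were 8.45, 8.86, 8.67 and 8.96 in TgMsi2 testes, against 9.67, 9.70, 9.89 and 9.42 in Wt(TgMsi2) testes. This was the gene with the lowest differences of the 8 probes in each line. The means were 9.28 ± 0.25 in TgMsi1 and 10.01 ± 0.23 in Wt(TgMsi1), a log2 difference of -0.73 or 60.1% of wild type, and 8.73 ± 0.23 in TgMsi2 and 9.67 ± 0.19 in Wt(TgMsi2), a difference of -0.94 or 52.3% (SD, n = 4 each). Among all 25697 probes its difference ranked 6 from the lowest in TgMsi1 and 45 in TgMsi2.

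Nckap1l was set beside markers of macrophages and other immune cells, where the gene is best known. All 16 genes of that list are on the array and 4 have a name in the deposited tables. None of the 4 passed limma's threshold (adjusted p under 0.05) in TgMsi1, where 0.00389% of all probes passed as higher and 0.00778% as lower. Their TgMsi1 log2 differences were 0.53 for Fcer1g, -0.19 for Laptm5, -0.04 and -0.13 for the Cd74 probes and -0.08 for Lyz2. The authors list Fcer1g as higher in both lines. In TgMsi2 all 4 rose, where 6.2% of all probes passed as higher. They were Laptm5 (log2 change 0.99), the invariant chain gene Cd74 (1.02 at each of 2 probes), the Fc receptor subunit Fcer1g (0.64) and lysozyme Lyz2 (0.61), with limma adjusted p from 0.00101 to 0.0231. Nckap1l therefore had lower signals on the TgMsi2 arrays on which these 4 genes rose. The mean log2 of the 5 marker probes ran from 9.28 to 9.63 in TgMsi2 and from 8.32 to 8.69 in Wt(TgMsi2), and from 8.32 to 8.62 in TgMsi1 and from 8.32 to 8.71 in Wt(TgMsi1). The deposited tables name only genes selected on these arrays, so the counts cover few of the markers and are not independent of the comparison. Fcer1g lost its call without TgMsi2 replicate 3 or Wt(TgMsi2) replicate 1 (limma adjusted p 0.0518 to 0.0684), Lyz2 when TgMsi2 replicate 1 or Wt(TgMsi2) replicate 2 or 4 was left out (0.0536 to 0.0823), and both without TgMsi2 replicates 1 and 3 together. The fit without both replicates has fewer arrays and was chosen after seeing the data. One of the Cd74 probes lost its call when only the 8 arrays of the line were fitted (limma adjusted p = 0.0582). Of the 15 other WAVE complex and RAC genes listed, all 15 are on the array and 0 have a name in the tables, so none has a value here.

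Ehbp1 encodes an adaptor that links EHD proteins and RAB8 or RAB10 vesicles to the actin cytoskeleton. Its log2 signals were 8.61, 8.39, 8.82 and 8.82 in TgMsi1 testes, against 9.08, 9.11, 8.96 and 9.31 in Wt(TgMsi1) testes. In the Musashi-2 line they were 8.53, 8.48, 8.54 and 8.28 in TgMsi2 testes, against 8.99, 9.36, 9.02 and 8.93 in Wt(TgMsi2) testes. The groups of each line did not overlap, and the log2 differences were -0.46 in TgMsi1 (72.7% of wild type) and -0.62 in TgMsi2 (65.3%). TgMsi1 replicate 2 was the lowest of its group, and without it the TgMsi1 difference was -0.37. Of 14 other genes of EHD and RAB8 or RAB10 recycling, 13 are on the array and 1 is named, the paralogue Ehbp1l1. Ehbp1l1 fell by 0.59 in TgMsi2 (SE 0.15, limma adjusted p = 0.0206), a comparison in which 5.32% of all probes passed as lower, and had a log2 difference of -0.18 in TgMsi1 (limma adjusted p = 0.859). Ehbp1l1 has a name, and so a value, only because it was selected on these arrays, so that it passed is largely fixed by that choice. Its call in TgMsi2 was lost on leaving out TgMsi2 replicate 1, TgMsi2 replicate 3, Wt(TgMsi2) replicate 3 or Wt(TgMsi2) replicate 4, with limma adjusted p of 0.053 to 0.0628.

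Epsti1, epithelial stromal interaction 1, is an interferon-responsive gene. It had log2 signals of 8.03, 7.84, 8.11 and 8.06 in TgMsi1 testes, against 8.69, 8.38, 8.71 and 8.67 in Wt(TgMsi1) testes. In TgMsi2 testes its signals were 7.91, 7.92, 7.96 and 7.94, against 8.50, 8.74, 8.58 and 9.00 in Wt(TgMsi2) testes. The transgenic arrays lay close to the array median of 7.83, where most probes of the array lie. The log2 differences were -0.60 in TgMsi1 (65.8% of wild type) and -0.77 in TgMsi2 (58.6%), and the SD was 0.02 in TgMsi2 against 0.22 in Wt(TgMsi2). The mean signal stood at percentile 58.4 of all probes in TgMsi1 and 71.0 in Wt(TgMsi1), and at percentile 55.4 in TgMsi2 and 72.2 in Wt(TgMsi2). Of 21 other interferon response genes, 20 are on the array and 2 are named. In TgMsi2, where 6.2% of all probes passed as higher, both of these genes, named because the tables selected them on these arrays, rose: the transcription factor Irf1 by 0.66 on the log2 scale (SE 0.13, limma adjusted p = 0.00614) and the antiviral membrane protein gene Ifitm3 by 0.79 (SE 0.21, limma adjusted p = 0.0287). In TgMsi1 their log2 differences were 0.19 and 0.11 and neither passed (limma adjusted p 0.815 and 0.952). Ifitm3 lost its call when any 1 of TgMsi2 replicates 1 and 3 and Wt(TgMsi2) replicates 1, 3 and 4 was left out (limma adjusted p 0.055 to 0.0952), and neither gene passed without TgMsi2 replicates 1 and 3 together (limma adjusted p 0.114 and 0.317).

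Prps1l3 is named as a relative of Prps1, one of the synthetases that make phosphoribosyl pyrophosphate, the ribose donor of nucleotide synthesis. It had log2 signals of 9.48, 9.18, 9.36 and 9.45 in TgMsi1 testes, against 10.13, 9.61, 9.88 and 9.99 in Wt(TgMsi1) testes. Its TgMsi2 signals were 9.47, 9.47, 9.57 and 9.31, against 10.02, 10.32, 9.81 and 10.22 in Wt(TgMsi2) testes. The transgenic groups again lay at one level, 9.37 ± 0.13 in TgMsi1 and 9.45 ± 0.11 in TgMsi2, against 9.90 ± 0.22 in Wt(TgMsi1) and 10.09 ± 0.23 in Wt(TgMsi2) (SD, n = 4 each). The log2 differences were -0.53 in TgMsi1 (69.0% of wild type) and -0.64 in TgMsi2 (64.3%). Of 15 other genes of phosphoribosyl pyrophosphate and purine synthesis, 13 are on the array and 0 are named.

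Fam161a (4930430E16Rik) encodes a microtubule-associated protein of centrosomes and cilia, and the human gene is mutated in a form of retinitis pigmentosa. Its log2 signals were 9.69, 9.36, 9.59 and 9.68 in TgMsi1 testes, against 10.07, 10.06, 10.20 and 10.15 in Wt(TgMsi1) testes. In the Musashi-2 line they were 8.95, 10.08, 9.47 and 9.60 in TgMsi2 testes, against 10.10, 10.28, 10.14 and 10.21 in Wt(TgMsi2) testes. TgMsi2 replicate 2 lay within 0.02 of the lowest wild-type array and replicate 1 lay lowest of all. The means were 9.58 ± 0.15 in TgMsi1 and 10.12 ± 0.07 in Wt(TgMsi1), a log2 difference of -0.54, and 9.53 ± 0.46 in TgMsi2 and 10.18 ± 0.08 in Wt(TgMsi2), a difference of -0.66 (SD, n = 4 each). The TgMsi2 difference depended most on single arrays of the 8 probes. Leaving out TgMsi2 replicate 2 gave -0.84, leaving out replicate 1 gave -0.46, and leaving out replicates 1 and 3 together gave -0.34.

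Ano10 encodes an anoctamin, one of a family that holds ion channels and lipid scramblases, and the human gene is mutated in a recessive cerebellar ataxia. It had log2 signals of 8.86, 9.01, 8.95 and 8.76 in TgMsi1 testes, against 9.23, 9.26, 9.39 and 9.36 in Wt(TgMsi1) testes. In TgMsi2 testes it had 8.69, 8.82, 8.73 and 8.94, against 9.12, 9.08, 9.07 and 9.02 in Wt(TgMsi2) testes. The wild-type arrays of each line lay close together, and the transgenic arrays lay below them. The log2 difference was -0.42 in TgMsi1 (75.0% of wild type) and -0.28 in TgMsi2 (82.5%), so Ano10 was the only 1 of the 8 probes whose TgMsi2 difference was the smaller of the pair. It is listed in the deposited TgMsi1 table but not in the TgMsi2 table, whose smallest fold was 1.5. Of 9 other anoctamins, 7 are on the array and 0 are named.

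Over the 8 probes the median log2 difference was -0.54 in TgMsi1 and -0.71 in TgMsi2, against a median of 0.00 over all 25697 probes in each comparison. The sorted values of all arrays nearly match, which favours a median near 0 over all probes. All 8 probes had 4 transgenic arrays below the 4 wild-type arrays in both lines, as 0.665% of all probes did, and nothing is read from this since it is close to what chose the genes. The TgMsi2 difference minus the TgMsi1 difference ran from -0.32 (Rasgrf1 probe B) to -0.10 (Prps1l3) in the 7 probes other than Ano10, where it was 0.14. The deposited tables start at a 1.2-fold difference for TgMsi1 and a 1.5-fold difference for TgMsi2, which favours genes with the larger TgMsi2 difference, and this contrast between lines was not tested. With 1 of the 8 arrays of a line left out, the differences ran from -0.84 to -0.37 in TgMsi1 and from -1.02 to -0.24 in TgMsi2. Their sign could not change, since the groups did not overlap.

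**Figure D2:**
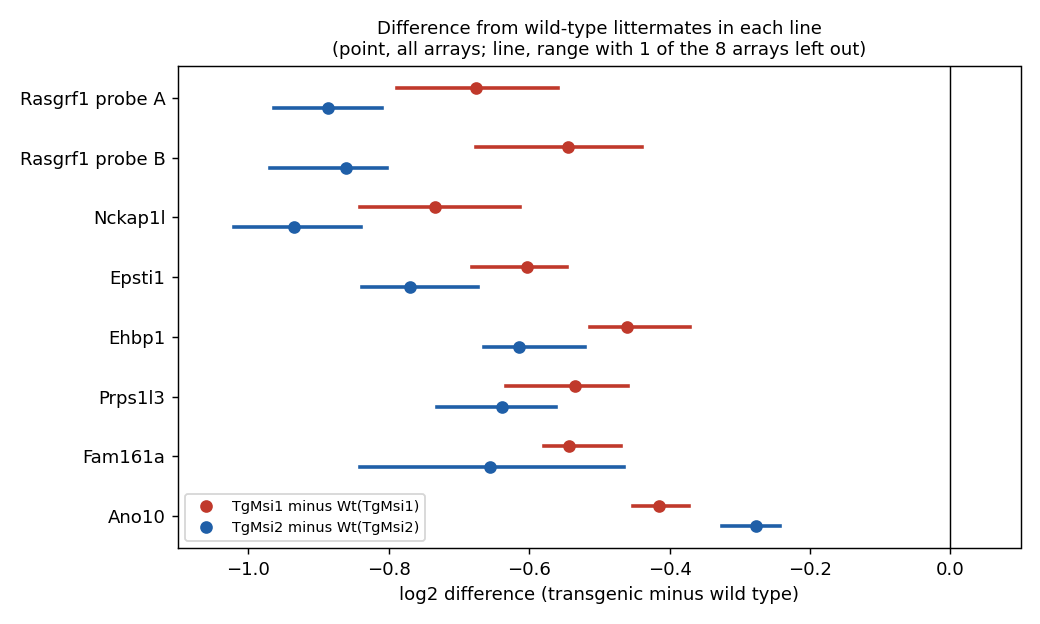
Log2 difference of transgenic minus wild-type means (x axis) for each probe (y axis) in the Musashi-1 line (red) and the Musashi-2 line (blue); points use all 8 arrays of the line and lines span the values with 1 array left out. Every line stays below 0, which is fixed where the groups do not overlap. Fam161a in the Musashi-2 line has the widest span, from -0.84 to -0.46.

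The authors' deposited tables list 118 probes as lower in TgMsi1 and 292 as lower in TgMsi2. They share 7 probes, 5.93% of the TgMsi1 list and 2.4% of the TgMsi2 list, and 0 probes stand in the tables with opposite directions. Of these 7, 6 belong to the genes described here, and the other was Pabpc2, a gene of the poly(A)-binding family active in testis, with log2 differences of -0.44 in TgMsi1 and -0.65 in TgMsi2. Among the 7, Ehbp1 and Prps1l3 were nearest to the fold limit of the TgMsi2 table, at -0.62 and -0.64 against -0.59. Just outside stood Elp5 and Ccdc27, which are listed as lower in TgMsi2 (log2 differences of -0.72 and -0.61) and had TgMsi1 differences of -0.2630 and -0.2620, against a limit of -0.2631. By the fold alone many more probes would qualify. Over all 25697 probes 122 (0.475%) were past both limits as lower, 37 of them without overlap in either line, and the member probes were 7 of the 122. Rasgrf1 probe B is an example, past both limits and absent from the TgMsi1 table. The genes described here are thus a small share of the probes past both fold limits. Their 7 probes are among the 37 without overlap, and nothing is read from this since it is close to what chose the genes. By the authors' own lists they hold 6 of the 7 shared probes. How the tables were cut beyond fold and p is not stated.

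The wild-type groups of the lines were set side by side for the level of each gene without a transgene. The same arrays stand in the comparisons that chose the genes, so these differences are a description, with no test. For Ano10, listed as lower in TgMsi1 alone, the choice favours a high Wt(TgMsi1) level. Ano10 had 9.07 ± 0.04 in Wt(TgMsi2) and 9.31 ± 0.08 in Wt(TgMsi1) (SD, n = 4 each), a log2 difference of -0.24. All 4 Wt(TgMsi2) arrays lay below all 4 Wt(TgMsi1) arrays for Ano10, as they did for 1.86% of all probes, and nothing is read from this. The difference between wild types was close in size to that between TgMsi2 and Wt(TgMsi2) testes (-0.28).

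Nckap1l was also lower in Wt(TgMsi2), with a log2 difference of -0.34, and the Rasgrf1 probes were higher, by 0.27 at probe A and 0.37 at probe B. The arrays of the wild-type groups overlapped for these and for the other genes. The differences were 0.09 for Epsti1, -0.04 for Ehbp1, 0.19 for Prps1l3 and 0.06 for Fam161a, and with 1 array left out those of Epsti1 and Ehbp1 took either sign. The line and any difference in how its arrays were run cannot be told apart.

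**Figure D3:**
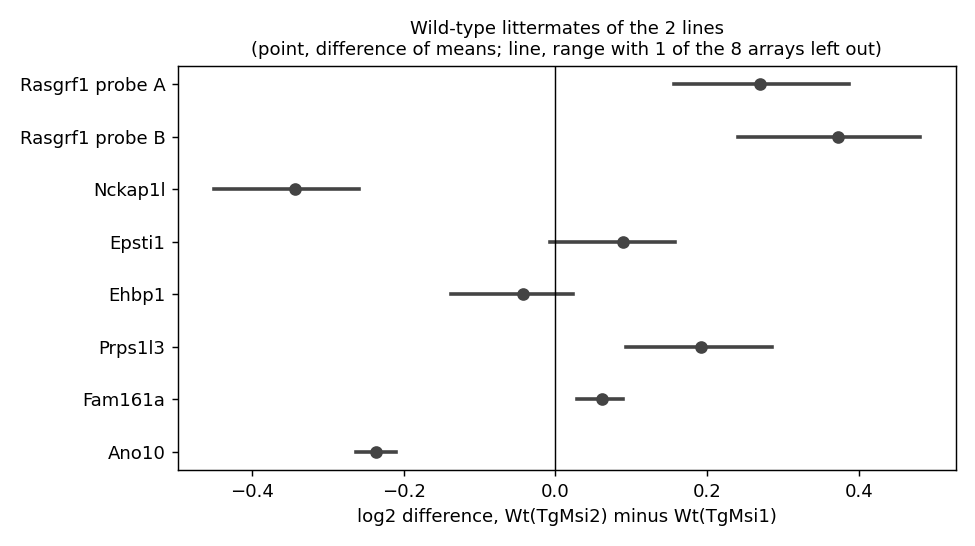
Log2 difference between the wild-type groups, Wt(TgMsi2) minus Wt(TgMsi1) (x axis), for each probe (y axis); points are differences of means over 4 arrays each and lines span the values with 1 of the 8 arrays left out. Nckap1l and Ano10 lie below 0, at -0.34 and -0.24, and the Rasgrf1 probes above it, at 0.27 and 0.37.

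The genes also moved together within groups, whose arrays share a genotype label. The level of the transgene on each array was not read. TgMsi1 replicate 2 was the lowest of its group for 7 of the 8 probes, against 26.7% of all probes, and the highest for Ano10. Wt(TgMsi1) replicate 2 was lowest for 6 of 8, against 26.8% of all probes, and TgMsi2 replicate 1 for 6 of 8, against 26.2%. In Wt(TgMsi2) no array was lowest for more than 4 of the 8, and the array lowest for 4 was replicate 1. Averaged over the 8 probes, log2 deviations from the group mean were -0.17 (TgMsi1 replicate 2) and -0.21 (Wt(TgMsi1) replicate 2). In the other line they were -0.15 (TgMsi2 replicate 1) and -0.12 (Wt(TgMsi2) replicate 1). The low arrays of a line thus bore the same replicate number. The labels do not say whether same-numbered arrays were run together, and a shared run was not tested. On TgMsi2 replicate 1, Ehbp1 (8.53) and Prps1l3 (9.47) were not below their group means (8.46 and 9.45). Fam161a (8.95) lay farthest below its own (9.53). The Rasgrf1 probes count nearly as 1 in these numbers.

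**Figure D4:**
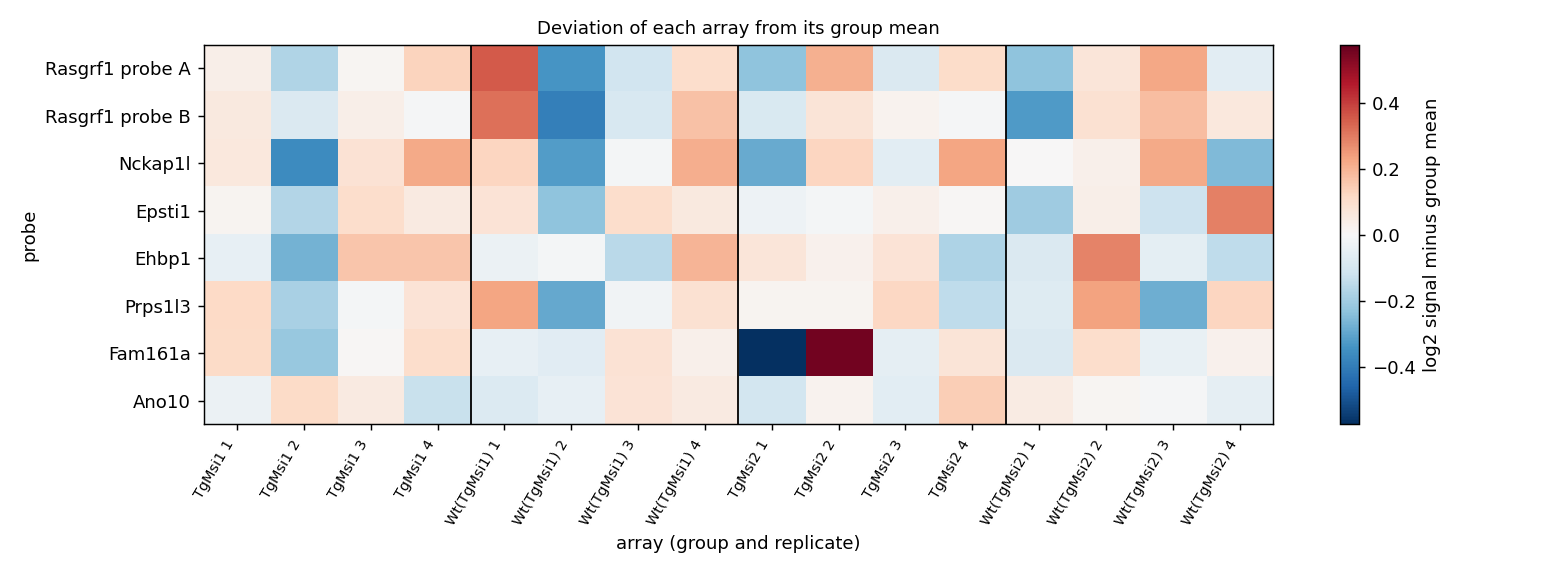
Log2 signal of each probe (rows) on each of the 16 arrays (columns) minus the mean of its group, with red above and blue below. The columns of TgMsi1 replicate 2 and Wt(TgMsi1) replicate 2 are mostly blue, and the largest deviations are those of Fam161a on TgMsi2 replicates 1 and 2.

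Markers of late germ cells were low on TgMsi1 replicate 2, Wt(TgMsi1) replicate 2 and TgMsi2 replicate 1. On Wt(TgMsi1) replicate 2 so were the others: that array had the lowest mean of its group for all 6 marker and interferon lists with values. Of 14 late spermatocyte and round spermatid markers, 13 are on the array and 6 are named, and the mean log2 of these 6 was lowest on replicate 2 in TgMsi1 and in Wt(TgMsi1) and on replicate 1 in TgMsi2 and in Wt(TgMsi2). It ran from 10.26 to 10.84 in TgMsi1 and from 10.72 to 10.99 in Wt(TgMsi1), and from 10.10 to 10.60 in TgMsi2 and from 10.90 to 11.05 in Wt(TgMsi2). Of 12 elongating spermatid markers, 10 are on the array and 2 are named, Prm3 and Gapdhs, and their mean ran from 11.82 to 12.68 in TgMsi1 and from 12.68 to 13.12 in Wt(TgMsi1), and from 12.21 to 12.50 in TgMsi2 and from 13.22 to 13.33 in Wt(TgMsi2). Prm3, Gapdhs, the Sertoli marker Cldn11 and the Leydig marker Insl3 had group means of at least 11.09 in all 4 groups, while the germ cell marker Aurkc lay near the array median in TgMsi2 (mean 7.92). On TgMsi1 replicate 2 and TgMsi2 replicate 1 the named Sertoli and Leydig markers instead had the highest mean of their group, at 12.87 and 13.46 for Sertoli and 10.78 and 11.68 for Leydig markers. The part of germ cell content in the values of the 7 genes was not tested.

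In TgMsi2 testes 3 of the 6 named late spermatocyte and round spermatid markers fell and 0 rose. They were the spermiogenesis transcription factor Crem (log2 change -0.62), the meiotic kinase Aurkc (-0.62) and the sperm hyaluronidase Spam1 (-0.76), with limma adjusted p from 0.000709 to 0.00524, while Catsper4 (-0.86), Spaca4 (-0.72) and Ccna1 (-0.14) did not pass (0.0542 to 0.43). Both named elongating spermatid markers fell, Prm3 by 1.45 and the sperm glycolysis gene Gapdhs by 0.37 (limma adjusted p 0.00404 and 0.00617). All 4 named Sertoli cell markers of 12, of which 10 are on the array, and all 4 named Leydig cell markers of 10, all on the array, rose in TgMsi2. A marker has a name, and so a value, only where the deposited tables selected it on these arrays, so that named markers pass is largely fixed by that choice. Of these 8, Aard, Cyp11a1 and Tspo lost their calls without TgMsi2 replicate 1 or 3 (limma adjusted p 0.0567 to 0.0720), and Aard also without Wt(TgMsi2) replicate 3. Aard and Cyp11a1 also lost theirs when only the 8 arrays of the line were fitted (0.0503 and 0.0909). Without TgMsi2 replicates 1 and 3 the late spermatocyte and round spermatid markers that passed numbered 1 (Aurkc), and 0 elongating spermatid, Sertoli or Leydig markers passed, with 3443 probes at an unadjusted p under 0.05 in limma. That fit has fewer arrays, was chosen after seeing the data and called 201 of all probes, against 2960 with every array. In it Prm3 had a difference of -1.31 against -1.45, and Aard 0.33 against 0.59. Lost calls and smaller differences were not told apart. In TgMsi1 0 members of any list passed, where 0.0117% of all probes passed against 11.5% in TgMsi2, and where 1881 probes had an unadjusted p under 0.05 in limma. Of the median differences in TgMsi1, late spermatocyte and round spermatid markers had -0.31 and elongating spermatid markers -0.58, against 0.12 for Sertoli and 0.30 for Leydig markers. Of 12 other RAS exchange factors and RAS genes, 10 are on the array and 0 are named.

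Likeness to each probe was measured over the 16 arrays as the root mean square difference in log2 signal after every probe was centred on its own mean, among 795 named probes of other genes. Ano10 was most like Pex11g, a peroxisomal membrane gene (0.0934), and Shroom3 (0.107). Ehbp1 was most like Pabpc2 (0.115) and Nupl1 (0.150). Epsti1 was most like Dcp1a, an mRNA decapping factor (0.116), and Reep4 (0.145). Fam161a lay nearest to Ubxn11 (0.151) and Ankrd53 (0.154), and Prps1l3 to Tpte (0.168) and the deubiquitinase Usp1 (0.173). Rasgrf1 probe A lay nearest to the neuropeptide gene Npb (0.169) and the zinc finger gene Zfp317 (0.201), and probe B to Olfr215 (0.184) and Npb (0.195). Nckap1l had the most distant partners, Fam20a (0.199) and Ankmy1 (0.208). All of these genes had log2 differences below 0 in each line, which the choice by likeness fixes. Among the members themselves the Rasgrf1 probes were 0.103 apart, Epsti1 and Prps1l3 were the closest different genes (0.142), and Nckap1l and Prps1l3 were the farthest apart (0.389).

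The 7 genes lie on 5 chromosomes, with Rasgrf1 and Ano10 on chromosome 9 and Ehbp1 and Fam161a on chromosome 11. In the RefSeq annotation (GRCm38.p6) only 5 protein-coding genes lie between Ehbp1 and Fam161a (Tmem17, B3gnt2, Commd1, Zrsr1 and Cct4). All 5 are on the array and 0 are named in the deposited tables, so their values were not analysed here. Among the 10 protein-coding genes on each side of every member (14 in all for Nckap1l, which lies near a chromosome end), 3 that are not members have a name. The gene next to Rasgrf1 is Ctsh, the lysosomal protease cathepsin H, which rose by 0.67 in TgMsi2 (SE 0.16, limma adjusted p = 0.0148) and had a log2 difference of 0.37 in TgMsi1 (limma adjusted p = 0.621). Ctsh thus had the opposite sign to its neighbour, and it lost its call without TgMsi2 replicate 1 (limma adjusted p = 0.0524). The vesicle coat gene Sec23a, 6 genes from Prps1l3, fell by 1.44 in TgMsi2 (SE 0.25, limma adjusted p = 0.00451) and had a difference of -0.21 in TgMsi1 (limma adjusted p = 0.911). Neither Sec23a nor Ctsh passed in TgMsi2 without TgMsi2 replicates 1 and 3 together (limma adjusted p 0.0986 and 0.179). Tsc22d1, 6 genes from Epsti1, had differences of 0.60 in TgMsi2 and 0.35 in TgMsi1 and passed in neither (limma adjusted p 0.0777 and 0.78). These neighbours were looked up after the members' values were seen. They have a name, and so a value, only because they were selected on these arrays. That Ctsh and Sec23a passed is largely fixed by that choice.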

How the data were processed

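The authors deposited a table of log2 signals for 25697 probes on 16 arrays. The submitters' processing notes name GenomeStudio without a version, and no source states the normalization. Once sorted, all 16 columns matched within 0.00601. The authors' deposited comparison tables give an unadjusted p-value, a ratio (transgenic over wild type) and, as a score, a signed fold per probe, per the file headers. They named 932 probes, of which 849 matched RefSeq by Entrez number and 51 by accession, and 32 kept the tables' name. Another table is unnormalized: its 128 per-array columns are tied to no sample by any label and were not used, so neqc normalization, a detection filter and a slide block were not run. Only its gene symbols were read.

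Group and replicate came from sample titles. Limma 3.58.1 (R 4.3.3) was fitted on all 16 arrays with 1 mean per group and no filter, with Benjamini-Hochberg values over 25697 probes. Members and gene lists were chosen with earlier results of these data known. Named genes were the members, the 2 nearest patterns per member probe, up to 4 list genes past the threshold per list, and the probes nearest to the tables' fold limits. Outside this rule, the list genes that did not pass (Catsper4, Spaca4 and Ccna1) and neighbours on the chromosome (Ctsh, Sec23a and Tsc22d1) were named after their values were seen. A test of the members between the wild-type groups was planned and is not reported, since the comparisons that chose them hold those arrays. In simulated data of 25697 probes, limma recovered 62 of 100 probes changed by a log2 of 0.5 and 95 of 100 changed by 1 for TgMsi2 minus Wt(TgMsi2), with 8 false calls. The changed probes all had a mean log2 above 8, and the simulated noise was normal and independent between probes and arrays. Recovery of dim probes, and false calls where probes shift together on an array, were therefore not measured. The number of arrays limits the precision. Replicate numbers were not taken to pair the arrays: correlations of same-numbered deviations ran from -0.29 to 0.44. In the Musashi-1 line alone they ran from 0.02 to 0.44, against -0.40 to 0.32 for different numbers. In the Musashi-2 line they ran from -0.29 to 0.34, against -0.29 to 0.38. The labels do not state whether the numbers pair arrays, and counts with the number as a block are given below.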

Additional observations from a re-analysis of the deposited data

Results flagged for a closer look

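In 2 of 124 groups of 4 values, 1 array lay far from the other 3 by Dixon's gap test, which chance passes in about 1 group in 20. Epsti1 was 8.38 on Wt(TgMsi1) replicate 2, against 8.67 to 8.71 on the other 3 arrays of the group, and without that array the TgMsi1 difference was -0.68. The immune marker Fcer1g was 8.35 on Wt(TgMsi1) replicate 3, against 7.52 to 7.64 on the other 3 arrays.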

How the results depend on the processing

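The transgene differences of the 8 probes moved by less than the spread between arrays with group medians, with same-numbered differences and with arrays left out (168 values). No sign could change, since the transgenic and wild-type arrays of each line did not overlap at these probes. The mean of same-numbered differences equals the difference of means by construction. Between the wild types 3 values near 0 changed sign. With 1 array left out Epsti1 ran from -0.00763 (without Wt(TgMsi2) replicate 4) to 0.158, and Ehbp1 from -0.138 to 0.0226 (without Wt(TgMsi1) replicate 4; 0.00635 without Wt(TgMsi2) replicate 4). The numbers of probes limma called were less stable. For TgMsi1, 3 probes were called, and 0 from the line's own 8 arrays (1791 at an unadjusted p under 0.05), 7 with robust variance and an intensity trend, 5 with array weights, 5 with the replicate number as a block, 8 among probes with a mean log2 above 8, and 0 to 30 with 1 array left out (where 0, the unadjusted p was under 0.05 for 1576 to 1979 probes). For TgMsi2, 2960 were called, 3333 with the replicate block, 1305 to 3530 with 1 array left out and 201 without both TgMsi2 replicates 1 and 3, a fit chosen after seeing the data. For Wt(TgMsi2) minus Wt(TgMsi1), 11 were called, 16 with the replicate block, 1 from the 8 wild-type arrays, 52 with robust variance and an intensity trend, and 6 to 30 with 1 array left out. The causes were not tested. The planned neqc normalization, detection filter and slide block were not run.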
